A study of Mus musculus with 14 samples.

Results

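Maturation of the normal mouse cornea was followed in 7 arrays of WT corneas, 4 from young adults at postnatal day 56 (PN56) and 3 from pups at postnatal day 11 (PN11), just before the eyelids open. They were chosen by the age and genotype in the sample labels, out of 14 arrays in the series. The other 7 arrays, 4 at PN56 and 3 at PN11, came from Klf5CN corneas and are used below only to set the same age step beside that of the WT. The WT animals were Klf5 loxP/loxP mice of mixed background without the Le-Cre transgene, and the Klf5CN animals were their littermates with 1 copy of Le-Cre, a Cre driver active in the surface ectoderm that forms the lens and the epithelium of the cornea, conjunctiva and eyelids. Both genotypes thus carried the floxed Klf5 allele. Each array held the RNA of both corneas of 1 mouse, cut out around the limbus, so epithelium, stroma and endothelium were measured together.

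The cornea is the transparent front wall of the eye. Its epithelium, which is thin at birth, stratifies around the time of eyelid opening and then meets air, tears and microbes. Beneath it, keratocytes lay down a stroma of ordered collagen fibrils held apart by small leucine-rich proteoglycans and then become quiescent, while a single-layered endothelium pumps fluid out of the stroma and keeps it clear. The comparison asks which transcripts differ between the 2 ages in normal tissue.

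Signals are arbitrary fluorescence units from Affymetrix mouse genome arrays, on which a transcript is read by 1 or more sets of short probes. They are given here as log2 signal after raising every value under 10 to 10, which is 3.32 on the log2 scale. A difference is the PN56 mean minus the PN11 mean in log2 units, so 1 unit is 2-fold, and it is followed by its standard error from limma. A gene was read by its brightest probe set and was said to rise or fall when its Benjamini-Hochberg adjusted p-value in limma was under 0.05 and the change was over 2-fold. Where arrays of the lower group lay at the floor, or their probe set was called Present in none of them, the difference is a lower bound on the size of the change. Levels of different genes were not compared, since each probe set has its own response.

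The arrays of 1 age resembled each other, with Pearson correlations of log2 signal between 0.972 and 0.985 within PN56 WT and between 0.980 and 0.983 within PN11 WT, against 0.867 to 0.886 between the ages. On average 55.7% of probe sets were called Present in PN56 WT arrays and 58.5% in PN11 WT arrays. Markers of the corneal epithelium were bright and close at both ages. Krt12, the cornea-specific keratin, had log2 signals of 12.80, 12.73, 12.87 and 12.99 in PN56 WT corneas, against 13.10, 12.72 and 12.70 in PN11 WT corneas, and the groups overlapped. Krt5, Krt14, Pax6, Aldh3a1 and Tkt differed by 0.08 to 0.38 on the brightest probe set and none passed the test there. A dimmer probe set of Pax6 rose by 3.77 ± 0.39 and passed. Among markers of tissues next to the cornea, Cryaa and Crygs of the lens gave means of 8.39 and 8.78 in PN56 WT corneas, against 9.12 and 8.49 in PN11 WT corneas. Single arrays of Crygs ran between 7.09 and 10.08 in PN56 WT and between 6.43 and 10.40 in PN11 WT corneas. Muc5ac of goblet cells was at 3.40 in PN56 WT corneas and 3.32 in PN11 WT corneas. Of the conjunctival keratins, Krt13 was at 10.49 in PN56 WT corneas and 9.82 in PN11 WT corneas. Krt4 gave 5.69, 3.57, 8.28 and 8.89 in PN56 WT corneas, against 7.26, 7.76 and 7.62 in PN11 WT corneas. Neither passed, whereas Krt19 fell, as given below. The muscle genes Myh4 and Tnnt3 were too dim to be tested. Of 11 skeletal muscle genes that were tested, 4 fell and none rose (median -0.71), the falls running between Casq1 at -1.21 ± 0.27 and Tnnt1, at the floor in every PN56 WT array and thus at least 4.02-fold lower.

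Of 29355 probe sets tested, 3006 (10.2%) were higher and 3592 (12.2%) lower at PN56. Read by 1 probe set each, 593 of 13659 genes (4.34%) rose and 2133 (15.6%) fell, and the median over all genes was -0.11. The falls were also larger, since 665 genes fell and 108 rose over 4-fold, and 69 fell and 9 rose over 16-fold. In 2682 of the 2726 genes that passed, the arrays of the 2 ages did not overlap. That follows in large part from choosing them on these same arrays, and the share over all tested genes was not counted. The largest called changes named from each list below were picked only among genes without overlap. Separate arrays in those genes are therefore no added support. The genes were then described by 58 lists of known function, each by the number of its members that passed in either direction beside those shares, with no test of the list itself.

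**Figure D1:**
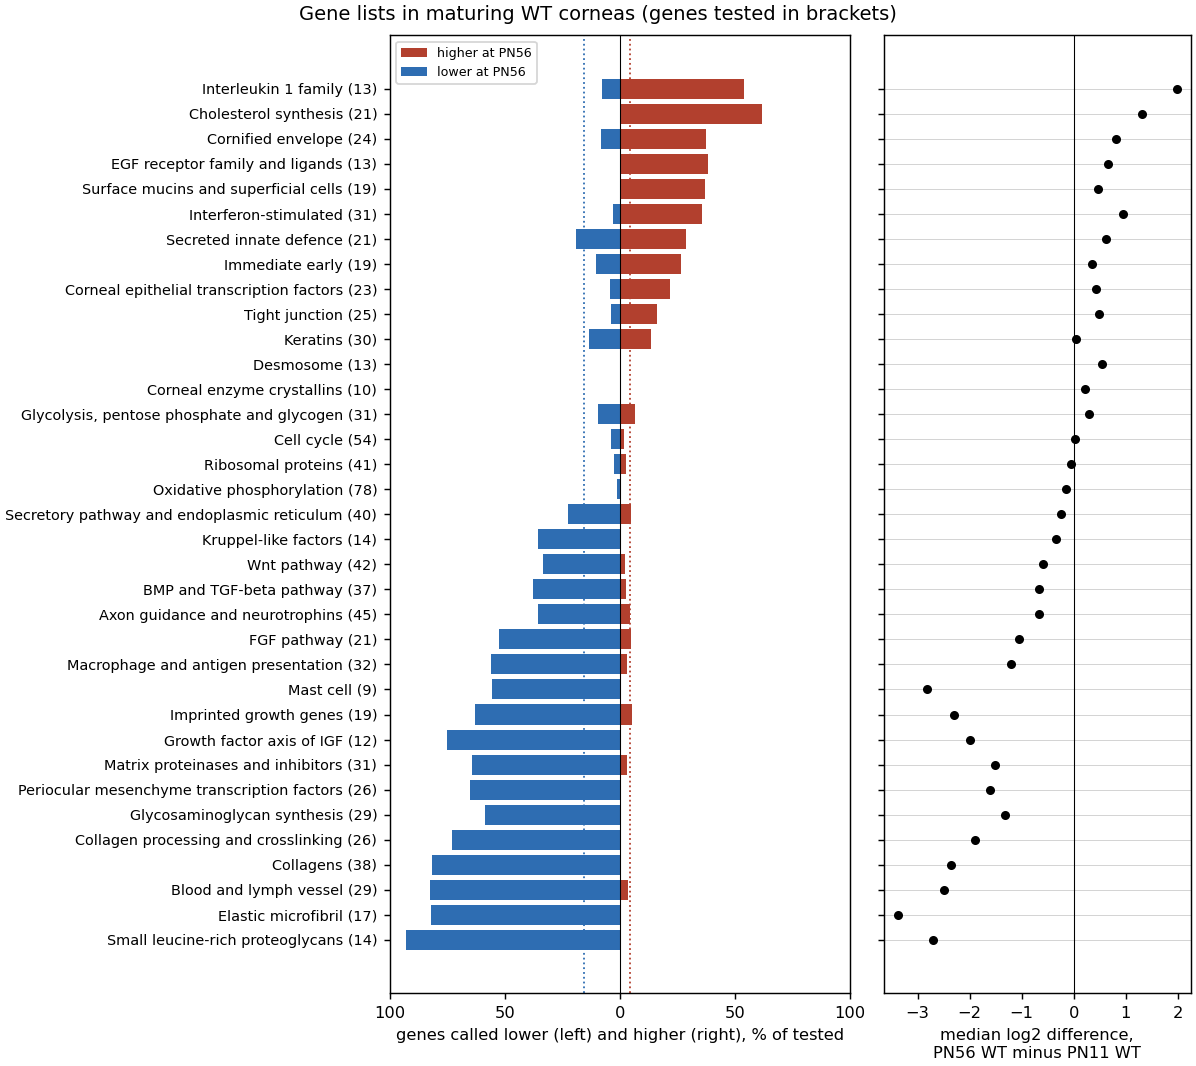
The left panel plots, for 35 gene lists with the number of genes tested in brackets, the percentage of tested genes called lower (left of 0) and higher (right of 0) in PN56 WT against PN11 WT corneas, with dotted lines at the shares over all genes (4.34% higher and 15.6% lower). The right panel plots the median log2 difference of each list, which ran between 1.98 for the interleukin 1 family and -3.38 for the elastic microfibril.

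Transcription factors of the corneal epithelium were mostly level on the brightest probe set, with 5 of 23 higher, 1 lower and a median difference of 0.43. Counting any probe set, 12 of the 23 had at least 1 that rose. Those that rose on the brightest are known for the late steps of epithelial differentiation. Ovol1, a zinc finger factor that goes with the exit of epithelial cells into terminal differentiation, had log2 signals of 8.42, 8.31, 8.09 and 8.25 in PN56 WT corneas, against 6.63, 6.37 and 6.39 in PN11 WT corneas. Its difference was 1.80 ± 0.17 (adjusted p = 1.9e-06), and both of its probe sets rose. Grhl3 and Zfp750, regulators of the skin barrier, rose by 1.52 ± 0.18 and 1.13 ± 0.15, and Elf3, an Ets factor of surface epithelia, rose by 1.06 ± 0.19, though it lost its call without PN56 array 4 (0.92) or PN11 array 2 (0.97). For each of these 3 genes a single probe set was tested. Tfap2c rose by 1.16 ± 0.23 on its brightest probe set, but its other 2 gave 0.63 and 0.48 and did not pass. Satb1, a chromatin organiser, fell by 1.14 ± 0.18 on the brightest of 3 probe sets, the only one of them to pass.

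Of 14 Kruppel-like factors none rose and 5 fell when read by the brightest probe set, with a median of -0.33, but 3 of them had a dimmer probe set that rose. Klf9, which answers to glucocorticoid and thyroid hormone, gave the largest fall of the family, with log2 signals of 7.44, 8.15, 8.39 and 7.43 in PN56 WT corneas, against 11.36, 11.73 and 10.74 in PN11 WT corneas. That is a difference of -3.42 ± 0.35 (adjusted p = 2.9e-06), with no overlap, and all 6 of its probe sets fell, by 1.84 to 4.20. Klf12 fell by 2.40 ± 0.36, Klf2, a factor of vessel walls and quiescent lymphocytes, fell by 2.18 ± 0.33, and Klf13 fell by 1.14 ± 0.31 on the brighter of 2 probe sets and by 1.56 ± 0.21 on the other. Klf15 fell 2.63-fold. The last 2 depended on single arrays. Klf13 lost its call without PN56 array 1 (-0.99) or PN11 array 2 (-0.90), and Klf15 without PN56 array 3 (-1.14) or 4 (-1.23) or PN11 array 1 (-1.39) or 2 (-1.03). Without PN11 array 2, 3 members of the list fell and 1 rose, and without PN56 array 4 also 1 rose. Klf4 and Klf5, the members best known in the corneal epithelium, differed by 0.43 ± 0.16 and -0.05 ± 0.32 and did not pass. Klf3 and Klf6, at 0.82 ± 0.13 and 0.96 ± 0.16 on the brightest, fell short of 2-fold there and rose on 3 of 6 and 2 of 5 probe sets, up to 2.06 and 2.29, and Klf6 passed on the brightest without PN56 array 4 (1.06) or PN11 array 2 (1.03). The other 2 probe sets of Klf5 both gave 1.12, and 1 of them passed, with log2 signals of 9.42, 9.22, 9.76 and 9.40 in PN56 WT corneas, against 8.43, 8.51 and 8.07 in PN11 WT corneas.

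Keratins, the intermediate filaments of epithelia, were level as a list, with 4 of 30 higher, 4 lower and a median of 0.05. Krt16, which marks stressed or fast renewing epithelium, gave 8.19, 10.23, 11.63 and 8.61 in PN56 WT corneas, against 6.91, 6.38 and 6.93 in PN11 WT corneas. All PN56 arrays lay above all PN11 arrays, but the PN56 arrays spread over more than 3 log2 units among themselves, and the difference of 2.93 ± 0.60 was 2.27 without PN56 array 3. Krt23, Krt78 and Krt80 rose by 2.74 ± 0.37, 2.20 ± 0.27 and 1.25 ± 0.15. Krt75, a keratin of hair follicles and nails, and Krt19, a keratin of simple epithelia and the conjunctiva, fell by 1.76 ± 0.29 and 1.68 ± 0.17.

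Genes of the ocular surface and of superficial cells included some of the largest rises, with 7 of 19 higher, none lower and a median of 0.46. Psca, an anchored protein of the Ly6 family, had log2 signals of 12.06, 11.95, 11.94 and 11.96 in PN56 WT corneas, against 6.54, 6.39 and 5.79 in PN11 WT corneas, which is a 53.5-fold difference (5.74 ± 0.41, adjusted p = 1.4e-07). Slurp1, a secreted Ly6 protein of the corneal epithelium known to dampen inflammation, gave 12.64, 12.57, 12.62 and 12.74 in PN56 WT corneas, against 9.72, 9.37 and 9.28 in PN11 WT corneas, a 9.10-fold difference. The PN56 arrays of both genes lay close together and far above the PN11 arrays. Ly6g6c, another Ly6 gene, rose by 1.84 ± 0.31 and did so on all 3 of its probe sets. Muc4 and Muc15, mucins that span the membrane of surface cells, rose by 1.69 ± 0.15 and 1.79 ± 0.18, whereas Muc1 gave -0.74 ± 0.23 and did not pass. Sdcbp2, an adaptor that binds syndecans, rose 15.1-fold (3.91 ± 0.23) on its single probe set.

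Components of the cornified envelope, the protein shell of the outermost cells of stratified epithelia, rose in 9 of 24 cases and fell in 2, with a median of 0.81. Lce3c, a late envelope gene, gave 9.07, 7.53, 8.37 and 7.50 in PN56 WT corneas, whereas every PN11 WT array was at the floor, so it was at least 27.8-fold higher at PN56. Spink5, an inhibitor of the proteases that loosen the outer layer, gave 9.77, 9.31, 9.60 and 8.53 in PN56 WT corneas, against 5.14, 5.61 and 5.38 in PN11 WT corneas (3.93 ± 0.24). Cnfn and Crct1 rose by 2.72 ± 0.48 and 2.71 ± 0.45, and Ppl, which ties the envelope to keratin filaments, rose by 1.19 ± 0.13. The skin-type genes Krtdap and Sbsn instead fell by 1.64 ± 0.27 and 1.56 ± 0.31. Lor and Ivl, the classical envelope proteins of skin, differed by 0.64 ± 0.40 and -0.12 ± 0.22 and did not pass, and their arrays overlapped, although Lor passed without PN56 array 2 (1.02). None of 13 desmosome genes passed on its brightest probe set with all arrays, and 1 did without PN11 array 1. On dimmer probe sets, however, 4 of them had 1 or more that rose and 1 had 1 or more that fell. Desmoplakin (Dsp) gave 0.51 ± 0.18 and 0.64 ± 0.24 on its brighter probe sets, which did not pass. Its dimmest rose by 7.33 ± 0.21. At tight junctions 4 of 25 genes rose and 1 fell (2 without PN56 array 3), and those that rose were Tjp1, Ocln, Pard6b and Cxadr, at 1.03 to 1.65. By any probe set, 11 of the 25 had at least 1 that rose and 1 had at least 1 that fell. Ocln lost its call without PN56 array 1 (0.99) or PN11 array 2 (1.0).

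**Figure D2:**
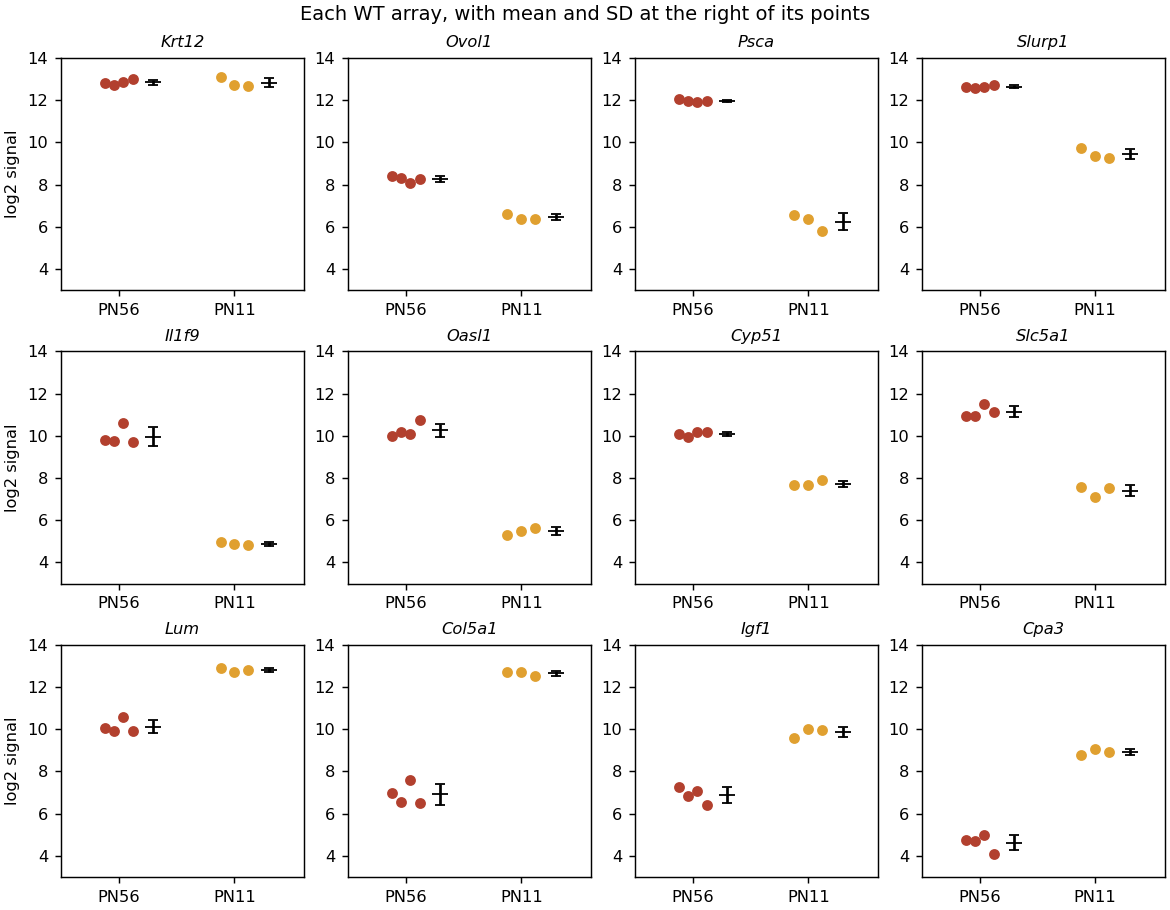
Each panel plots the log2 signal of 1 gene in the 4 PN56 WT and 3 PN11 WT arrays, with the mean and SD of each age as a black mark at the right of its points. Krt12 overlaps between the ages, 7 genes from Ovol1 to Slc5a1 lie higher at PN56, and Lum, Col5a1, Igf1 and Cpa3 lie lower.

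Secreted proteins of innate defence changed in both directions, with 6 of 21 higher and 4 lower. Wfdc18, a whey acidic protein, had log2 signals of 10.07, 10.69, 10.94 and 11.34 in PN56 WT corneas, against 6.58, 6.78 and 5.12 in PN11 WT corneas (4.60 ± 0.37). Sftpd, the surfactant collectin that binds microbial sugars, gave 8.32, 8.80, 8.14 and 7.71 in PN56 WT corneas, against 4.20, 4.81 and 3.32 in PN11 WT corneas (4.13 ± 0.36). Ltf, the iron binding lactoferrin of tears, gave 9.87, 10.71, 10.51 and 9.87 in PN56 WT corneas, against 6.85, 7.26 and 6.44 in PN11 WT corneas (3.39 ± 0.24). No array of 1 age reached the range of the other in these 3 genes, which the naming rule asked for. Lcn2, which withholds bacterial iron carriers, rose by 2.00 ± 0.48, but PN56 array 4 was at 6.84 and the other 3 PN56 arrays between 9.09 and 9.76, against 6.61 to 6.78 in PN11 WT corneas, and without that array the difference was 2.62. Rnase4, a ribonuclease with antimicrobial relatives, and the lysozymes Lyz1 and Lyz2 fell by 2.37 ± 0.25, 2.17 ± 0.51 and 1.72 ± 0.41. The 2 lysozyme genes are near-identical copies that 1 probe set may not tell apart.

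The interleukin 1 family had the highest median of the 58 lists, 1.98, with 7 of 13 genes higher and 1 lower. These cytokines are kept in epithelial cells and released on damage, and the array names Il1f5, Il1f6, Il1f8 and Il1f9 are older symbols of the IL-36 genes. Il1f9 (IL-36 gamma) had log2 signals of 9.82, 9.74, 10.61 and 9.70 in PN56 WT corneas, against 4.98, 4.87 and 4.81 in PN11 WT corneas, a 33.8-fold difference (5.08 ± 0.32, adjusted p = 4.6e-08). Il1f6 (IL-36 alpha) gave 8.02, 7.92, 9.48 and 8.39 in PN56 WT corneas, against 3.42, 4.11 and 4.19 in PN11 WT corneas (4.55 ± 0.31). PN56 array 3 was the highest for both, and every PN56 array lay more than 3 log2 units above every PN11 array. Il1a rose by 3.75 ± 0.23, Il33, an alarmin of barrier cells, by 2.17 ± 0.32, Il1f8 (IL-36 beta) by 2.13 ± 0.34 and Il18 by 1.98 ± 0.17. The antagonists went separate ways. Il1f5, which blocks the IL-36 receptor, rose by 2.31 ± 0.31 on the brighter of its 2 probe sets, while Il1rn, which blocks the IL-1 receptor, fell by 1.02 ± 0.28, just past 2-fold. Il1rn, the only fall of the list, lost its call without PN56 array 1 (-0.99), 2 (-0.99) or 4 (-0.87) or PN11 array 3 (-0.79). Among the receptors Il1r1 gave -0.42 ± 0.30 and Il1rap 0.27 ± 0.19, and neither passed. Il1b was at 5.32, 5.17, 7.34 and 5.01 in PN56 WT corneas, against 4.88, 4.96 and 5.01 in PN11 WT corneas, so that its difference of 0.76 ± 0.48, which did not pass, was 0.22 without PN56 array 3.

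Genes known to be induced by interferons rose in 11 of 31 cases and fell in 1, with a median of 0.94. Oasl1, an inhibitor of Irf7 translation, had log2 signals of 10, 10.20, 10.09 and 10.73 in PN56 WT corneas, against 5.29, 5.49 and 5.65 in PN11 WT corneas, a 27.5-fold difference (4.78 ± 0.18, adjusted p = 1.1e-09). Oas3, a sensor of double-stranded RNA, gave 6.18, 6.18, 7.11 and 7.44 in PN56 WT corneas, against 4.86, 5.27 and 3.32 in PN11 WT corneas (2.24 ± 0.54). Trim30a, a ubiquitin ligase, gave 8.40, 8.32, 8.73 and 8.41 in PN56 WT corneas, against 6.08, 6.61 and 6.39 in PN11 WT corneas (2.11 ± 0.31). The ages did not overlap in any of the 3, again as the naming rule asked. Oas2, Parp14 and Stat2, the last a subunit of the factor that carries the interferon signal, rose by 1.94 ± 0.44, 1.71 ± 0.24 and 1.57 ± 0.36. Ifit1, one of the most inducible genes of this group, gave 7.54, 8.27, 8.94 and 9.67 in PN56 WT corneas, against 7.41, 7.52 and 7.11 in PN11 WT corneas (1.25 ± 0.55), and did not pass, except without PN56 array 1 (1.61). Rsad2, likewise strongly inducible, was at -0.49 ± 0.67, and Bst2, which tethers virions, fell by 1.14 ± 0.32.

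Genes of this kind often carry an interferon-stimulated response element, whose core can be written as GAAA, any 2 bases and GAAA, on either strand. In windows from 250 bases before to 50 bases after the start site (RefSeq, GRCm38.p6), which were found for 23 of the 31 genes and taken as first listed, the letters occurred in 13 of 23 genes (56.5%), against 943 of 27025 mouse promoters (3.49%). They were in 4 of the 7 rising genes that had a window. The 250 bases before the start of Oas3 (chr5:120777660-120777909, minus strand) and Trim30a (chr7:104465194-104465443, minus strand) are shown because both genes rose and each stretch holds 1 match, in capitals. The match begins 75 bases before the start site in Oas3 and 36 in Trim30a, where it is read on the opposite strand.
Oas3: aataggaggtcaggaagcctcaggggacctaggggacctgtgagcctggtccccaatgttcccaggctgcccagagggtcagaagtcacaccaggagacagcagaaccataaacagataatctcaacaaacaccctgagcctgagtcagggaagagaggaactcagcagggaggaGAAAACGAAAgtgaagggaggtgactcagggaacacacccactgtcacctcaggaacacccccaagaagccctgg
Trim30a: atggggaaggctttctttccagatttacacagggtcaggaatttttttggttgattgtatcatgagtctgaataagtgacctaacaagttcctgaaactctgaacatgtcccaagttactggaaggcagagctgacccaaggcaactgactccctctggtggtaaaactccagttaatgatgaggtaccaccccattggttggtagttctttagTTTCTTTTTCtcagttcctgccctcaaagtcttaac
No match lay in the windows of Oasl1, Oasl2 and Psmb8, which also rose, although Oasl2 lost its call without PN56 array 3 (1.01) or 4 (0.95) or PN11 array 1 (1.04), 2 (1.13) or 3 (1.07), while Bst2, which fell, held 2 matches, so the letters were found in genes of either direction.

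Cholesterol synthesis had the largest share of rising genes of the 58 lists, with 13 of 21 higher, none lower and a median of 1.31. The enzymes of this pathway turn acetyl units into sterols and are commonly switched on together by the Srebf2 factor. Cyp51, which removes a methyl group from lanosterol, had log2 signals of 10.07, 9.94, 10.19 and 10.16 in PN56 WT corneas, against 7.66, 7.65 and 7.89 in PN11 WT corneas (2.36 ± 0.23, adjusted p = 2.1e-06), and all 3 of its probe sets rose. Idi1, which makes the isoprene unit, gave 10.44, 10.38, 10.67 and 10.68 in PN56 WT corneas, against 8.44, 8.25 and 8.86 in PN11 WT corneas (2.02 ± 0.23). In both genes the arrays fell into 2 narrow, separate groups. Fdft1, Hsd17b7, Msmo1, Lss, Sqle and Sc5d rose by 1.75 to 1.86, and 5 of the 13 members with several probe sets rose on every one. Hmgcs1, an early enzyme, was at 0.93 ± 0.22 on its brightest probe set, just short of 2-fold, and passed on its other 4. The gene for Srebf2 itself gave -0.20 ± 0.26 and did not pass. The sterol element TCACNCCAC was in 1 of 17 members with a window, Hmgcs1, and in 330 of 27025 promoters (1.22%). In fatty acid synthesis 3 of 21 genes rose and 2 fell, among them Fasn at 1.14 ± 0.17 and Scd1 at 1.37 ± 0.26. Sptssb, a subunit of the enzyme that starts sphingolipid synthesis, rose by 3.29 ± 0.33, with both probe sets higher, and Cers3, a ceramide synthase of epidermal barriers, by 1.48 ± 0.19.

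In the family of the EGF receptor, the main growth signal of the corneal epithelium, 5 of 13 genes rose and none fell (median 0.66), 3 of them ligands of that receptor, or 1 lower without PN56 array 2 or 4 or PN11 array 1. Hbegf gave 9.74, 10.02, 9.59 and 10.04 in PN56 WT corneas, against 7.93, 8.21 and 8.40 in PN11 WT corneas (1.67 ± 0.31). Ereg and Btc rose by 1.64 ± 0.18 and 1.35 ± 0.21, Nrg1, a ligand of other receptors of the family, by 1.01 ± 0.30 (0.93 without PN56 array 3, 0.98 and 0.91 without PN11 arrays 2 and 3, and then not past the test), and Errfi1, the feedback inhibitor of the receptor, by 1.34 ± 0.16. Egfr itself was at 0.08 ± 0.13 and did not pass on its brightest probe set, while 1 of its 6 probe sets gave 2.74.

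Of 262 solute carriers 20 (7.63%) rose and 45 (17.2%) fell, beside 4.34% and 15.6% of all genes, and a few transporters rose strongly and on every probe set. When all probe sets were read, 44 of the 262 had at least 1 that rose and 51 at least 1 that fell. Slc5a1, the sodium-glucose cotransporter, had log2 signals of 10.96, 10.94, 11.51 and 11.15 in PN56 WT corneas, against 7.57, 7.12 and 7.54 in PN11 WT corneas, a 13.3-fold difference (3.73 ± 0.16) seen on both of its probe sets. Slc1a1, a glutamate and cysteine transporter, gave 9.64, 9.74, 10.21 and 9.50 in PN56 WT corneas, against 7.13, 7.02 and 7.11 in PN11 WT corneas (2.69 ± 0.18, 3 of 3 probe sets). Slc4a11, a transporter of the corneal endothelium whose loss causes an endothelial dystrophy in people, gave 11.15, 11.01, 10.84 and 10.63 in PN56 WT corneas, against 9.02, 9.69 and 9.75 in PN11 WT corneas (1.42 ± 0.25). In all 3 the lowest PN56 array was above the highest PN11 array, a separation that the naming rule favoured. On the brightest probe set Slc4a11 was the only rise among 17 genes of the endothelial pump (5.88%), 3 of which fell (17.6%). Both shares were near those of all genes. Slc4a11 was 1 of 2 rises without PN56 array 1 or PN11 array 2 or 3. By any probe set, 4 of the 17 had at least 1 that rose and 4 at least 1 that fell. Col8a1, a collagen of the endothelial basement membrane, fell by 1.38 ± 0.18, but its 3 probe sets ran between -2.39 and 1.31. The anion exchanger Slc26a7 fell by 3.48 ± 0.30 on the brighter of 2 probe sets. Gch1, the first enzyme of tetrahydrobiopterin synthesis, rose by 3.76 ± 0.30, and Clic5, a chloride channel protein tied to the cortical cytoskeleton, by 3.05 ± 0.18 with 4 of 4 probe sets higher.

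Matrix genes known from the stroma were among those that fell most. Of 38 collagen genes tested, none rose and 31 fell, with a median of -2.35, and 14 of the 21 with several probe sets fell on every one. Col5a2, a chain of the collagen that limits fibril width, had log2 signals of 7.98, 7.81, 8.59 and 7.77 in PN56 WT corneas, against 12.81, 12.64 and 12.62 in PN11 WT corneas (-4.65 ± 0.43). Col12a1 and Col1a2 fell less, by 1.86 ± 0.17 and 1.89 ± 0.38, but the 3 probe sets of Col1a2 ran between -4.32 and -1.89. Col7a1, the anchoring fibril of the epithelium, fell by 1.17 ± 0.16, while Col17a1, the transmembrane collagen of hemidesmosomes, was at 0.31 ± 0.18 and did not pass.

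Small leucine-rich proteoglycans, which set the spacing of the fibrils, fell in 13 of 14 cases, with none higher and a median of -2.71. Kera, the keratan sulfate proteoglycan that marks keratocytes, gave 9.50, 8.90, 9.97 and 8.70 in PN56 WT corneas, against 12.84, 12.79 and 12.78 in PN11 WT corneas (-3.54 ± 0.48). Lum gave 10.08, 9.92, 10.58 and 9.91 in PN56 WT corneas, against 12.88, 12.72 and 12.81 in PN11 WT corneas (-2.68 ± 0.27). Dcn gave 11.21, 11.03, 11.63 and 11.08 in PN56 WT corneas, against 13.09, 12.98 and 13.01 in PN11 WT corneas (-1.79 ± 0.36). PN56 array 3 was the highest of its age for all 3 genes and still below every PN11 array. Bgn and Ogn fell by 3.10 ± 0.42 and 1.45 ± 0.19, so that members known from the same tissue layer differed in the size of their fall. Ptgds, a prostaglandin synthase also used as a keratocyte marker, did not fall with them. It was at 10.24, 8.87, 9.27 and 9.93 in PN56 WT corneas, against 9.22, 9.45 and 9.81 in PN11 WT corneas, and the ages overlapped. In whole corneas, fewer cells of a type and less RNA of a gene per cell cannot be told apart.

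The machinery that builds and crosslinks fibrils fell as well, in 19 of 26 genes with none higher. Lox, whose product oxidises the lysines that link collagen and elastin, had log2 signals of 6.55, 6.56, 7.56 and 5.74 in PN56 WT corneas, against 11.22, 11.25 and 11.07 in PN11 WT corneas, a 23.9-fold difference (-4.58 ± 0.48). Loxl1, its relative in elastic tissue, gave 7.88, 7.78, 7.71 and 7.19 in PN56 WT corneas, against 11.38, 11.55 and 11.42 in PN11 WT corneas (-3.81 ± 0.31). Both fell on all of their probe sets. Serpinh1, the chaperone of procollagen, fell by 3.12 ± 0.25 with both probe sets lower, and Plod1, a lysyl hydroxylase, by 3.51 ± 0.24 on the brighter of 2. Genes of elastic microfibrils had the lowest median of all lists, -3.38, with 14 of 17 lower and none higher, among them Mfap2 (-5.08 ± 0.73), Mfap5 (-4.28 ± 0.36), Eln (-3.68 ± 0.36) and Fbln5 (-3.23 ± 0.19). Glycosaminoglycan synthesis fell in 17 of 29 genes and rose in none, with Chst5, a keratan sulfate sulfotransferase, at -1.31 ± 0.27. Matrix proteinases and their inhibitors fell in 20 of 31 and rose in 1, Adamts1 (1.56 ± 0.28), or in 2 without PN56 array 1 or 2. By any probe set, 4 of the 31 had at least 1 that rose and 21 at least 1 that fell. Adam10 and Adam17 were each at 0.09 on the brightest probe set and did not pass there. Their dimmer probe sets rose, by 1.94 and 4.13 in Adam10 and by 1.23 and 2.34 in Adam17. Ctsk, the collagen-degrading cathepsin, fell 31.9-fold (-5.00 ± 0.37).

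The general secretory pathway did not fall to the same degree, with 9 of 40 genes lower, 2 higher and a median of -0.24. The falls included Creb3l1, a factor that drives procollagen export, at -4.44 ± 0.57, and Kdelr3, a retrieval receptor of the endoplasmic reticulum, at -4.0 ± 0.31. Hyou1, a chaperone of the same compartment, rose by 1.22 ± 0.14 on the brightest of 3 probe sets, of which another gave 2.00 and passed and the last gave 0.30 and did not. Without PN56 array 2 or PN11 array 2 the list held 1 rise.

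Transcription factors of the periocular mesenchyme, the source of keratocytes and endothelium, fell in 17 of 26 cases and rose in none (median -1.61). Twist2, a basic helix-loop-helix factor of dermal and stromal progenitors, fell at least 37.1-fold (-5.21 ± 0.55, with PN56 WT array 4 at the floor), Prrx2 by 3.89 ± 0.45, Twist1 by 3.60 ± 0.47 and Foxc2 by 2.94 ± 0.35. Zeb2 fell by 3.31 ± 0.31, with 4 of 5 probe sets lower. Foxc1, needed for the anterior segment, was at 0.30 ± 0.16, and Tfap2b, needed for the endothelium, at -0.25 ± 0.19, and neither passed on any of its probe sets.

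Fetal growth genes fell together. In the insulin-like growth factor axis 9 of 12 genes fell and none rose. Igf2, the fetal growth factor, had log2 signals of 7.46, 7.58, 7.47 and 7.32 in PN56 WT corneas, against 10.76, 10.77 and 10.73 in PN11 WT corneas (-3.30 ± 0.19), and Igf1 gave 7.25, 6.82, 7.05 and 6.40 in PN56 WT corneas, against 9.60, 10.01 and 9.98 in PN11 WT corneas (-2.98 ± 0.26). Igf1 fell on 4 of 4 probe sets and Igfbp4, a binding protein, on 6 of 6, by 2.90 to 4.38. Igf2bp1, a fetal binding protein of Igf2 mRNA, was at the floor in 3 of 4 PN56 WT arrays and fell at least 8.0-fold. Of 19 imprinted genes 12 fell and 1 rose (median -2.30). Peg3, expressed from the paternal copy, fell by 3.80 ± 0.36 on 3 of 3 probe sets, Grb10, an inhibitor of insulin signalling, by 3.24 ± 0.39 on 2 of 2, while the cell cycle inhibitor Cdkn1c was at -3.10 ± 0.19. Phlda2, the 1 rise, was at 1.01 ± 0.25 and lost its call without PN56 array 1 (0.95), 2 (0.99) or 4 (0.99) or PN11 array 2 (0.79), and Ndn was at -0.32 ± 0.24, with none of its 5 probe sets past the test.

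Signalling pathways of development fell in part. In the Wnt list 14 of 42 genes fell and 1 rose, in the BMP and TGF-beta list 14 of 37 fell and 1 rose, in the FGF list 11 of 21 fell and 1 rose, and in the axon guidance list 16 of 45 fell and 2 rose. By any probe set, at least 1 rose in 7, 7, 5 and 7 genes of these lists, in that order. At least 1 fell in 14, 14, 12 and 21. Secreted inhibitors and ligands were among the large falls, such as Sfrp2 (-4.30 ± 0.67), Dkk2 (-2.93 ± 0.21), Wif1 (-3.05 ± 0.74) and Wnt5a (-2.18 ± 0.20) of the Wnt pathway, Fstl1 (-3.81 ± 0.36), Gdf10 (-3.20 ± 0.42) and Tgfb3 (-2.90 ± 0.38) of the BMP and TGF-beta pathway, and Fgf18 (-2.92 ± 0.20) and Fgf7 (-2.26 ± 0.34) of the FGF pathway. The rises of these 3 pathways on the brightest probe set were Wnt9a (1.74 ± 0.19), Nog (1.08 ± 0.33) and Fgf1 (1.02 ± 0.18, 3 of 3 probe sets). Fgf1 lost its call without PN56 array 1 (0.94) or 2 (1.0) or PN11 array 1 (0.88), Nog lost it without PN11 array 3 (0.97), and without PN56 array 4 the Wnt list had 2 rises. In axon guidance, Sema3c, a repellent ligand, fell by 3.69 ± 0.23, and Epha2, a receptor of epithelial contacts, rose by 1.46 ± 0.21. In the list of Schwann cell and nerve genes 6 of 15 fell and none rose on the brightest probe set, while 3 had a dimmer one that rose. Among the falls was Gap43, a protein of growing axons, at 4.66, 4.46, 4.61 and 4.81 in PN56 WT corneas, against 7.72, 8.12 and 8.22 in PN11 WT corneas (-3.38 ± 0.24).

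Vessel genes fell in 24 of 29 cases and rose in 1, with a median of -2.50, and 9 of the 13 with several probe sets fell on each. Aplnr, the apelin receptor of growing vessels, had log2 signals of 4.26, 3.77, 3.72 and 4.41 in PN56 WT corneas, against 9.25, 9.18 and 9.21 in PN11 WT corneas (-5.17 ± 0.35). Rgs5 of pericytes fell by 3.76 ± 0.32 on 4 of 4 probe sets, Lyve1 of lymph vessels by 3.13 ± 0.67 and Cdh5 of endothelial junctions by 2.66 ± 0.36. Flt1, a receptor for VEGF whose soluble form is known to keep the cornea free of vessels, was the exception. It gave 6.66, 6.93, 6.38 and 7.19 in PN56 WT corneas, against 5.24, 5.74 and 4.64 in PN11 WT corneas (1.58 ± 0.30), and 3 of its 4 probe sets rose. The files do not say which of them read the soluble form.

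Genes of macrophages and antigen presentation fell in 18 of 32 cases and rose in 1. Csf1r, the receptor that macrophages need, fell by 2.79 ± 0.42 on 3 of 3 probe sets, and the tissue macrophage genes Cd163 and Mrc1 by 3.34 ± 0.64 and 2.97 ± 0.55, whereas Cd68 was at 0.36 ± 0.23 and Cd74, the chaperone of class II molecules, at -0.69 ± 0.44, neither past the test, although Cd74 passed without PN56 array 3 (-1.10). Among mast cell genes 5 of 9 fell and none rose. Cpa3, the mast cell carboxypeptidase, gave 4.74, 4.69, 4.98 and 4.10 in PN56 WT corneas, against 8.79, 9.05 and 8.91 in PN11 WT corneas (-4.29 ± 0.31), and Mcpt4 gave 3.56, 3.32, 3.57 and 3.32 in PN56 WT corneas, against 7.86, 8.10 and 8.16 in PN11 WT corneas, so it was at least 24.2-fold lower at PN56. Both, with Cma1, were called Present in all 3 PN11 arrays and in none of the 4 PN56 arrays. Pigment cell genes, which mark iris and limbus, fell in 5 of 10 cases, with Tyr, Pmel and Tyrp1 at -1.62, -1.42 and -1.10. Smooth muscle genes fell in 6 of 11. The summed signal of the 10 pigment cell genes was between 1017 and 1920 in PN56 WT corneas, against 2122 to 3161 in PN11 WT corneas, and that of 12 retinal genes between 176 and 366 in PN56 WT corneas, against 423 to 674 in PN11 WT corneas. That of 11 skeletal muscle genes was between 264 and 366 in PN56 WT corneas, against 389 to 392 in PN11 WT corneas. The sums of 17 lens genes (1955 to 7581 at PN56, 2646 to 19158 at PN11) overlapped between the ages. So did those of 10 conjunctiva and goblet cell genes (4296 to 6572 at PN56, 6447 to 7842 at PN11). Of the 12 retinal genes 2 (16.7%) fell, beside 15.6% of all genes. The defining gene Tyrp1 lost its call without PN56 array 2 (-1.0) or 3 (-0.99) or PN11 array 2 (-0.90) or 3 (-1.06), and without PN56 array 3 or PN11 array 2 only 3 pigment genes fell. The pigment cell, retinal and muscle sums and the pigment markers moved with age in the same direction as the vessel, mast cell and nerve genes. The part of iris, limbal, retinal or muscle tissue in those falls was not tested.

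Several broad groups barely moved. In the cell cycle list 1 of 54 genes rose and 2 fell (median 0.03), and Mki67, the common marker of dividing cells, was at 9.03, 8.84, 8.87 and 9.0 in PN56 WT corneas, against 8.71, 8.58 and 8.27 in PN11 WT corneas (0.41 ± 0.17), which did not pass. Leaving out single arrays gave 0 to 2 rises and 1 or 2 falls in this list. By any probe set, 7 of the 54 had at least 1 that rose and 3 at least 1 that fell. The fall of Ccnd2, a D-type cyclin, by 2.43 ± 0.22 stood apart, with 6 of 7 probe sets lower. Among 78 genes of oxidative phosphorylation 1 fell (2 without PN56 array 1 or PN11 array 2) and none rose, among 41 ribosomal proteins 1 rose and 1 fell, and none of 10 enzymes that build up as corneal crystallins passed. These lists were bright, with median PN56 WT levels of 10.32, 12.54 and 11.61. Of all tested probe sets at mean levels of 11 to 15, 2.12% were called higher and 2.24% lower. At levels of 9 to 11 the shares were 7.55% and 7.17%. Few calls were thus not particular to these lists.

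Genes with several probe sets gave a second reading of the age step. Of 6501 such genes, 121 (1.86%) rose and 380 (5.85%) fell on every probe set, 61 (0.938%) had probe sets called in opposite directions, and 3724 (57.3%) had none called. A further 1460 (22.5%) had some probe sets higher and none lower, and in 1302 of these the brightest was not among those that passed. The dimmer probe sets leaned upward. Of 11279 of them 1981 (17.6%) were higher and 1094 (9.70%) lower, whereas the brightest of the same genes were higher in 283 and lower in 869 cases. By how far a probe set was dimmer than the brightest of its gene, the share called higher was 6.15% under 1 log2 unit, 16% at 1 to 2, 27.2% at 2 to 4, 30.3% at 4 to 6 and 25.3% at 6 or more. The shares called lower were 13.8%, 11.2%, 6.23%, 3.52% and 4.40% over the same steps.

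**Figure D3:**
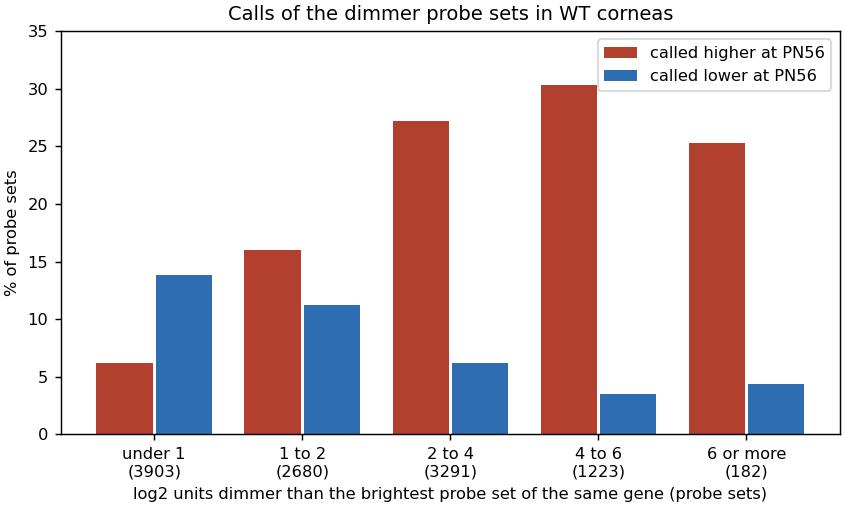
Bars give the percentage of dimmer probe sets called higher and lower in PN56 WT against PN11 WT corneas, by how many log2 units they were dimmer than the brightest probe set of the same gene, with the number of probe sets in brackets. The share called higher is 6.15% in the first step and between 25.3% and 30.3% in the last 3.

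Control probe sets spread along a single transcript moved differently from transcript to transcript. Those of pyruvate carboxylase (Pcx) gave 3-prime to 5-prime signal ratios of 5.59, 3.88, 5.75 and 8.99 in PN56 WT corneas, against 15.1, 13.8 and 13.5 in PN11 WT corneas. Its 3-prime set differed by 0.46 log2 units, its 2 middle sets by 1.73 and 2.08 and its 5-prime set by 1.75, each with an exact two-sided permutation p = 0.057, the smallest that 35 arrangements of 4 and 3 arrays allow. The Actb ratio went the other way by little, at 1.31, 1.37, 1.31 and 1.32 in PN56 WT corneas, against 1.20, 1.19 and 1.17 in PN11 WT corneas (exact permutation p = 0.057), and the Gapdh ratio did not differ beyond its spread (exact permutation p = 0.97). The labelling starts at the 3-prime end of a transcript. The part of coverage along the transcript in the rises of dimmer probe sets was not tested.

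Some widely studied genes read differently by probe set. Scd2, a fatty acid desaturase, had 3 probe sets with differences of 0.69 ± 0.27, 3.08 ± 0.69 and 6.23 ± 0.31. The dimmest gave 10.44, 10.61, 10.22 and 9.87 in PN56 WT corneas, against 4.15, 4.34 and 3.67 in PN11 WT corneas, while the brightest gave 12.65, 12.69, 12.83 and 12.93 in PN56 WT corneas, against 11.99, 12.11 and 12.17 in PN11 WT corneas. Dsc3, a desmosomal cadherin, was at 0.63 ± 0.20 on its brightest probe set and 5.10 ± 0.34 on the other, Prkci at 0.52 and 4.65, Met at 0.32 and 4.41, and Hif1a at 0.27, 0.24 and 4.44. Only the dimmer probe sets of these genes passed over 2-fold. Others ran in opposite directions, such as Igfbp5, a binding protein of the IGF axis, at -1.66 ± 0.24 on the brighter and 2.09 ± 0.32 on the dimmer probe set, Sec61a1, the channel of the endoplasmic reticulum, with 6 probe sets between -1.07 and 2.62, and Mbp, a myelin gene that also has forms outside glia, with 1 of 8 higher and 5 lower. For such genes the direction depends on the probe set that is read, and for the 7158 genes with 1 tested probe set, 310 of them higher and 1264 lower, no second reading exists.

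**Figure D4:**
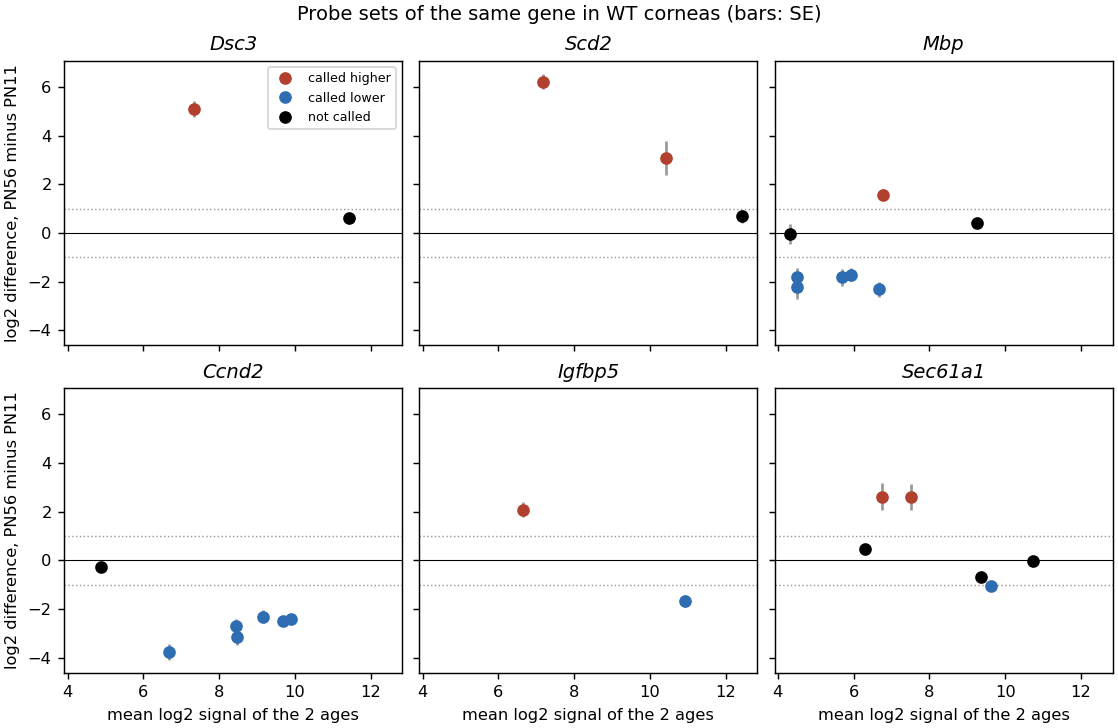
Each point is a probe set of the named gene, with its mean log2 signal over the 2 ages on the horizontal axis and its log2 difference, PN56 WT minus PN11 WT, with SE on the vertical axis; dotted lines mark 2-fold. The probe sets of Dsc3 and Scd2 lie higher the dimmer they are, 6 of 7 of Ccnd2 lie lower, and those of Mbp, Igfbp5 and Sec61a1 fall on both sides of 0.

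The same age step in Klf5CN corneas gave 653 genes higher (4.78%) and 1833 lower (13.4%), with a median of -0.07. Klf5 itself was at 5.31 ± 0.86 in PN56 Klf5CN corneas (SD, n = 4) and 6.92 ± 0.23 in PN11 Klf5CN corneas (SD, n = 3), against 10.27 ± 0.09 and 10.31 ± 0.12 in WT corneas of those ages. Whether its probe sets read the deleted part is not stated in the files. The WT and Klf5CN steps share no arrays. Of the 593 genes that rose in WT corneas, 325 (54.8%, and 49.8% of the Klf5CN rises) also rose in Klf5CN corneas and none fell. Of the 2133 that fell in WT corneas, 1456 (68.3%, and 79.4% of the Klf5CN falls) also fell and 1 rose, Kbtbd11, whose difference of the steps was 3.15 ± 0.51 and lost its call without PN11 WT array 1 or 2 (2.93 to 3.50 over 14 fits that each left out 1 array). A gene that passed in 1 genotype only is not thereby shown to differ, and the difference of the 2 steps itself passed for 70 genes, 39 with a higher step in Klf5CN corneas (0.286%) and 31 with a lower one (0.227%). PN56 Klf5CN array 4 and PN11 Klf5CN array 3 had Actb ratios of 2.63 and 3.07, above those of the other 12 arrays. Their Gapdh ratios were 1.57 and 72.5, against 0.687 to 0.845 in the other 12. Without these 2 arrays 76 genes differed, and 344 rises and 1595 falls were shared with the WT. The count depended strongly on single arrays. It was 263 without PN56 Klf5CN array 3, 39 and 34 without PN11 Klf5CN arrays 1 and 2, 41 and 42 without PN56 WT arrays 1 and 2, and 23, 29 and 31 without PN11 WT arrays 1, 2 and 3.

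Secreted defence genes held 4 of these differences among 21. Wfdc18 was at 12.29 ± 0.52 in PN56 Klf5CN corneas and 12.55 ± 0.14 in PN11 Klf5CN corneas, against 10.76 ± 0.53 in PN56 WT corneas and 6.16 ± 0.91 in PN11 WT corneas (SD, n = 4 and 3). Its step was -0.25 in Klf5CN and 4.60 in WT corneas, a difference of -4.85 ± 0.53 (limma adjusted p = 0.00053). Sftpd, Ltf and Cxcl17, a chemokine of mucosal surfaces, behaved alike, with differences of -4.83 ± 0.51, -3.25 ± 0.34 and -1.99 ± 0.35. Cxcl17 lost its call without array 1 or 3 of PN11 WT or array 1 or 2 of PN11 Klf5CN (-1.81 to -2.18 over 14 such fits). Their means were 11.36, 12.06 and 9.51 in PN11 Klf5CN corneas, against 4.11, 6.85 and 5.25 in PN11 WT corneas, so all 4 genes were already high in PN11 Klf5CN corneas. Oasl1, Slc5a1, Gch1 and Spink5 also rose in Klf5CN corneas, but less, by 2.42, 1.96, 1.50 and 1.18 against 4.78, 3.73, 3.76 and 3.93 in WT corneas, and each difference passed. That of Gch1 was lost without any 1 PN11 WT array, PN56 Klf5CN array 4 or PN11 Klf5CN array 1 or 2 (-2.05 to -2.51 over 14 such fits). In Oasl1 and Slc5a1 the PN56 means were 10.23 and 11.18 in Klf5CN corneas and 10.26 and 11.14 in WT corneas, while the PN11 means were 7.81 and 9.22 in Klf5CN corneas and 5.47 and 7.41 in WT corneas. Scd1 rose in WT corneas only, with a difference of -1.85 ± 0.37 between the steps that passed in only 4 of 14 fits without 1 array (-1.62 to -2.07). Slurp1, Grhl3, Sptssb and Dlk1 gave steps of 3.24, 1.51, 3.12 and -5.74 in Klf5CN corneas, against 3.19, 1.52, 3.29 and -5.91 in WT corneas, and none of these 4 differences passed. Fabp4, a fatty acid carrier of fat cells and capillaries, and Basp1, a protein of growth cones, gave steps of -0.32 and -0.06 in Klf5CN corneas, against -3.56 ± 0.24 and -3.79 ± 0.33 in WT corneas, with differences of 3.24 ± 0.34 and 3.73 ± 0.47.

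**Figure D5:**
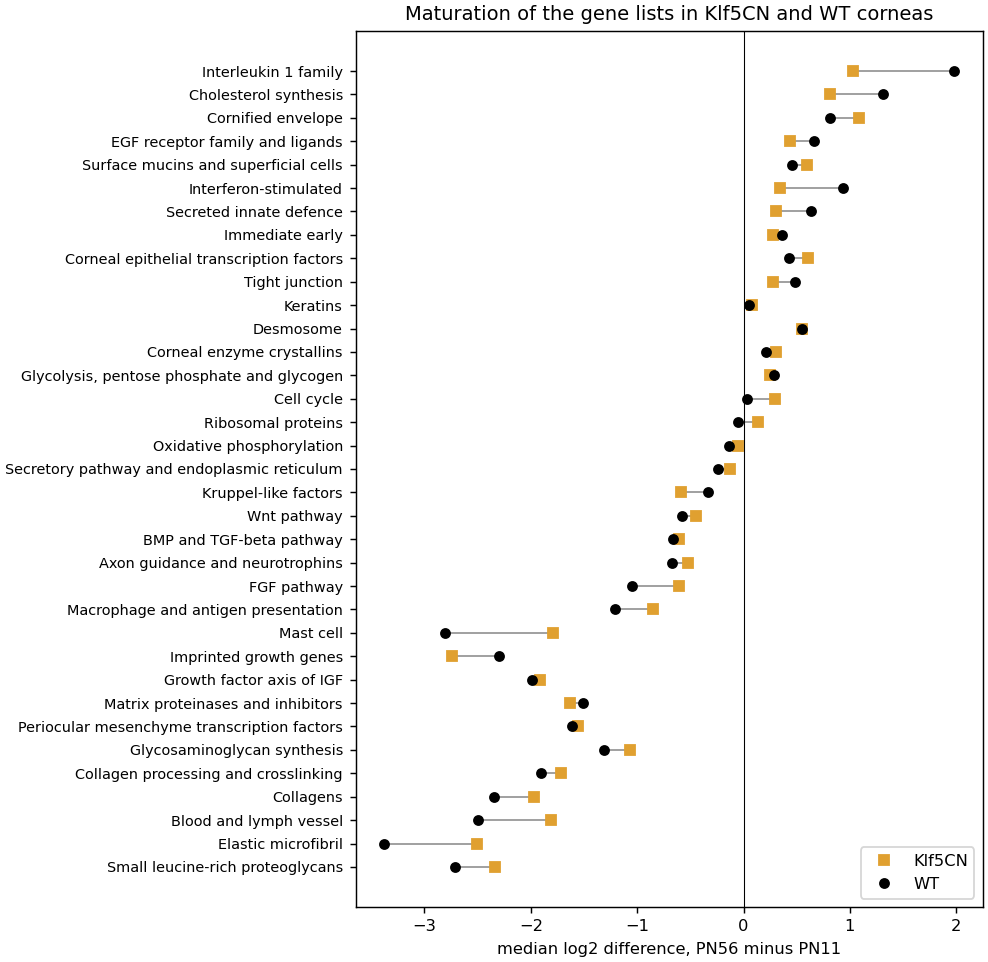
Each row is 1 of 35 gene lists, with its median log2 difference, PN56 minus PN11, in Klf5CN corneas (squares) and WT corneas (circles). The cholesterol list has medians of 0.81 in Klf5CN and 1.31 in WT corneas and the collagens -1.97 in Klf5CN and -2.35 in WT corneas.

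By list, cholesterol synthesis had 3 of 21 genes higher in Klf5CN corneas and 13 in WT corneas, the interferon list 5 of 31 in Klf5CN and 11 in WT corneas, and the interleukin 1 family 6 of 13 in Klf5CN and 7 in WT corneas. None of the cholesterol genes and 1 of the interferon genes, Oasl1, passed the test of the difference. Collagens fell in 32 of 38 cases in Klf5CN corneas and 31 in WT corneas, and 2 of them, Col8a1 and Col14a1 (2.26 ± 0.43), passed the test of the difference, in 2 and 3 of the 14 fits without 1 array. The proteoglycans fell in 13 of 14 cases in both genotypes, and none passed that test. Cornified envelope genes rose in 14 of 24 cases in Klf5CN corneas and 9 in WT corneas, and 1 of them, Spink5, passed the test of the difference.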

How the data were processed

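RNA of both corneas of 1 mouse was hybridised to each of 14 Affymetrix mouse arrays. The deposited values are linear signal intensities per probe set, which the authors computed with GCOS 1.4 and scaled so that the 2% trimmed mean of each array was 150. The 2 deposited tables held the same 631414 values. The number of arrays called Present per group was used, while the counts of pairwise changes between groups, which hold the authors' own comparisons, were not.

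Signals under 10 (30.7% of WT values) were set to 10 before log2. Of 45101 probe sets, the 29355 with a signal above 20 in at least 3 arrays were fitted in limma 3.58.1 (R 4.3.3, lmFit and eBayes with a trend, 4 groups without covariates, two-sided) and adjusted over all of them by the Benjamini-Hochberg method. The study itself asked for a fold threshold, Present calls, a two-tailed rank sum test and pairwise calls of the array software together, and separation of the arrays with such thresholds was an alternative here. Symbols came from the platform annotation, with 34958 probe sets having 1 symbol, 932 several and 9211 none, and only those with 1 were named; 204 symbols had no match in the reference. A gene was read by the tested probe set with the highest mean over the 2 WT groups. Tables and figures used Python 3.11.15, pandas 2.3.3, numpy 2.4.6 and matplotlib 3.10.9. Tested on simulated data for PN56 WT against PN11 WT over 29355 probe sets, the fit recovered 82 of 100 changed 3-fold and 95 of 100 changed 6-fold, with 6 false calls. The simulated noise was normal and independent between probe sets, and no other probe sets were changed. In the real data 42.4% of probe sets had a limma adjusted p-value under 0.05. The simulated false calls thus do not give the error of the real comparison. The number of arrays limits the precision.

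The gene lists and the comparison were chosen with earlier results of these data known. Genes were named by a rule: the largest called changes of each list with no overlap, up to 5 per direction, or the 2 largest where none was called; the 20 largest rises and 20 largest falls shared by all probe sets of a gene; the 10 widest gaps between probe sets of opposite direction and the 10 widest where the brightest was not called; defining markers; genes the study discusses; and the 10 largest differences between the genotypes. Chosen after their values were seen were Klf15, Klf4, Muc4, Muc1, Crct1, Ppl, Lor, Ivl, Il1f8, Il18, Il1rn, Il1r1, Il1rap, Il1b, Stat2, Ifit1, Rsad2, Oasl2, Psmb8, Srebf2, Lss, Sqle, Sc5d, Hmgcs1, Egfr, Col17a1, Ogn, Serpinh1, Eln, Fbln5, Foxc1, Tfap2b, Grb10, Cdkn1c, Ndn, Cd74 and Mki67. Alternatives changed the arrays in the fit, the scaling, the floor, the filter, the moderation, the threshold, the RNA quality covariate and the probe set read; leaving out Klf5CN arrays was added after seeing the data.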

Additional observations from a re-analysis of the deposited data

Results flagged for a closer look

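Among 209 genes looked at, 15 had 1 PN56 WT array apart from the other 3, by a gap over the range of the 4 arrays above Dixon's critical value, which chance exceeds in about 1 in 20 groups. PN56 array 4 was apart in Col17a1 (0.904), Cyp2s1 (0.884), Egfr (0.834), Elf3 (0.892), Klf6 (0.932) and Tjp1 (0.905). PN56 array 3 was apart in Il1b (0.867), Il1f9 (0.870) and Met (0.833). PN56 array 1 was apart in Cdkn1c (0.835). In Egr3, Igf2bp1, Krtdap, Wif1 and Muc5ac the ratio was 1.0, because 3 of the 4 arrays were at the floor.

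The age step differed between Klf5CN and WT corneas, in limma's test of the difference, for 14 named genes. The Klf5CN minus WT difference was positive in Basp1 (3.73), Fabp4 (3.24), Kbtbd11 (3.15) and Col14a1 (2.26). It was negative in Wfdc18 (-4.85), Sftpd (-4.83), Ltf (-3.25), Spink5 (-2.75), Oasl1 (-2.37), Gch1 (-2.26), Cxcl17 (-1.99), Scd1 (-1.85), Slc5a1 (-1.77) and Col8a1 (-1.29). That of Col8a1 passed in only 2 of the 14 fits without 1 array (-1.16 to -1.46) and that of Col14a1 in 3 (2.10 to 2.56).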

How the results depend on the processing

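Of 170 named genes that passed, 141 kept call and direction in all 26 alternatives. Only Igfbp5 turned among them, to 2.09 without the less specific probe sets (names ending in _x_at or _s_at) and 0.22 as the mean of its probe sets. With signals under 32 set to 32, 1946 probe sets were higher and 2290 lower, 27 genes had opposite calls and 296 the same call throughout. Opposite calls were 24 with log2 of signal plus 16 and 31 with a signal above 64 asked for. Without a minimum fold, 6126 probe sets were higher and 6308 lower, 2064 genes higher and 3750 lower, 376 opposite and 1165 the same throughout. The mean of all tested probe sets gave 888 genes higher and 1906 lower, 500 and 1839 of them among those reported. The cause of these changes was not tested beyond what each setting itself changes. Leaving out 1 array, the genes that differed between genotypes ran between 23 and 263.

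Genes that did not pass also changed sign. By the mean of all probe sets these were Ivl (0.44), Klf5 (0.73), Mbp (-0.99), Sec61a1 (0.65) and Tkt (-0.03), by the probe set brightest over all 14 or over the Klf5CN arrays Klf5 (1.12 in both), and without the less specific probe sets Tkt (-0.17). The Actb ratio as a covariate gave Crygs -0.22 and Krt12 -0.08, separation of the arrays Crygs -0.06, and subtracted medians Sec61a1 0.02. Leaving out 1 array, Cryaa ran between -1.68 and 0.09, Crygs -0.75 and 1.23, Krt12 -0.06 and 0.14, Krt14 -0.06 and 0.22, Ptgds -0.14 and 0.32, and Sec61a1 -0.03 and 0.01.

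Same-numbered PN56 and PN11 WT arrays deviated together with correlations of 0.102, 0.027 and 0.117, so the numbers were not taken as pairs, although each PN11 array correlated best with the PN56 array of its own number, a hint from the data and not from the design. With the replicate block 3255 probe sets were higher and 3669 lower, 613 genes higher and 2180 lower, 76 opposite and 506 the same throughout. The block cost 6 named genes their call, Cyp2s1 (0.94), Elf3 (0.93), Il1rn (-0.88), Oasl2 (1.13), Phlda2 (0.94) and Timp1 (-1.51), and Krt12, Krt14, Krt5 and Tkt, which did not pass, gave -0.17, -0.01, -0.03 and -0.06.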

Other observations

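Other groups also held genes that passed, and the genes here were chosen after their values were seen. Of 17 clock genes 2 rose and none fell, Clock by 1.47 ± 0.17 on its brightest probe set and Nr1d1, a repressor in the same loop, by 1.38 ± 0.27; the labels state no time of day for the dissections, and 1 clock gene fell when PN56 array 3 or 4 or PN11 array 3 was left out. Of 19 immediate early genes 5 rose and 2 fell (3 rose without PN11 array 3 and 1 fell without PN11 array 2). Fos, which answers to growth factors and handling, gave log2 signals of 10.42, 10.86, 10.61 and 10.52 in PN56 WT corneas, against 9.49, 9.15 and 9.32 in PN11 WT corneas, while Nr4a1 fell by 2.31 ± 0.42 and Egr3 by 1.21 ± 0.32 (-0.98 and not past the test without PN11 array 2). Of 54 phase I enzymes 4 (7.41%) rose and 9 (16.7%) fell, near the 4.34% and 15.6% of all genes (2 rose without PN56 array 4). Cyp2s1 was at 1.11 ± 0.27 (0.90 without PN56 array 4) and Cyp1b1, a gene of congenital glaucoma in people, at -2.34 ± 0.22. Alox15, a lipoxygenase whose products resolve inflammation, gave 8.87, 9.06, 10.60 and 11.29 in PN56 WT corneas, against 7.16, 7.14 and 5.75 in PN11 WT corneas. Mxd1, an antagonist of Myc in differentiating cells, rose by 1.79 ± 0.11 on 3 of 3 probe sets, and Angptl7, a stromal secreted protein, fell by 4.44 ± 0.47.

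In several genes of stressed or inflamed epithelium PN56 array 3 stood highest of its age. Serpinb2 was at 4.39, 5.63, 9.90 and 7.54 in PN56 WT corneas, with every PN11 WT array at the floor, so that it was at least 11.7-fold higher, and its difference of 3.54 ± 0.96 was 4.37 without PN56 array 1 and 2.53 without PN56 array 3. Timp1 was at 4.86, 6.03, 8.01 and 5.18 in PN56 WT corneas, against 7.45, 7.61 and 7.75 in PN11 WT corneas. Its difference of -1.58 ± 0.58 was -2.25 without PN56 array 3, but it no longer passed without any 1 of the other 6 arrays (-1.20 without PN56 array 1, -1.58 without 2 and -1.30 without 4, and -1.66, -1.58 and -1.51 without PN11 arrays 1, 2 and 3). Krt16 and Il1b, given above, had the same highest array.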
